A study of Homo sapiens with 6 samples.

Results

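The matrix metalloproteinases (MMPs) and their tissue inhibitors (TIMPs) were examined in a human hepatic stellate cell line that overexpressed fibroblast activation protein α (FAPα). The members were the rows of the deposited gene table whose symbol was MMP1, MMP2, MMP3, MMP9, MMP10, MMP14, TIMP1, TIMP2, TIMP3 or TIMP4, which made 10 of the 60748 genes in the table. They were chosen by their values in the comparison of FAPα-overexpressing with control cells, in which MMP1 was higher and MMP2 lower, so their differences between the groups are given as a description with no p-value, and nothing is read from the number of members that the fit across all genes called. RNA was sequenced in 6 libraries of LX-2, an established line derived from human hepatic stellate cells, the pericytes of the liver sinusoid. LX-2Vector cells (n = 3) carried the empty lentiviral vector, and LX-2FAP cells (n = 3) carried the same vector with the FAPα sequence. In both groups the vector held a ubiquitin promoter before the cloning site, EGFP and a puromycin resistance gene, and both groups were cultured for 24 h. The study's methods describe stably infected cells, the number of clones is not given, and nothing says whether the libraries of a group came from separate cultures. The spread between libraries may therefore be technical. The labels describe RNA depleted of ribosomal RNA, while the methods also name a poly(A) step.

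MMPs are zinc-dependent proteases that are made as inactive precursors and cleave collagens, laminins, fibronectin and other parts of the extracellular matrix once the propeptide is removed. TIMPs bind the active site of MMPs and block it, so the balance of both sets the rate at which matrix is broken down. In the liver, hepatic stellate cells are a main source of both families, and the deposition of fibrillar collagen by these cells is the hallmark of liver fibrosis. Transcript levels, which are what was measured here, carry no information on activation of the precursors or on binding of the inhibitors.

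Promoter sequences give the setting in which these transcripts start. RefSeq (GRCh38.p14) promoter windows were matched by symbol for 5 of the 10 members, namely MMP10, MMP14, TIMP1, TIMP3 and TIMP4. MMP1, MMP2, MMP3, MMP9 and TIMP2 were not matched. The 120 bases before the outermost annotated start are printed 5′ to 3′ on the gene's strand for 4 members. MMP10 is shown as the neighbour of MMP1 that was nearly silent, and MMP14, TIMP1 and TIMP3 as members with a clear level. Capitals mark the letters of an AP-1 site (TGANTCA, which reads the same on the other strand). They also mark those of an SP1 site on either strand (GGGCGG). In MMP10 they mark those of a TATA box as well (TATAAA).
MMP10, chr11:102780629-102780748, minus strand: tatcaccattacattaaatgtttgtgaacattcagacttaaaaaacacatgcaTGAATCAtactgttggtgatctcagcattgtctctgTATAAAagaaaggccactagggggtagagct
MMP14, chr14:22836437-22836556, plus strand: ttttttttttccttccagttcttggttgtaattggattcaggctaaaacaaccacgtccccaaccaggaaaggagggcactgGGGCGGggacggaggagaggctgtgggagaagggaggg
TIMP1, chrX:47582193-47582312, plus strand: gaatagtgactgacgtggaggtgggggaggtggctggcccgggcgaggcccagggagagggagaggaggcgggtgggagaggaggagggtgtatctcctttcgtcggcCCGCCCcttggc
TIMP3, chr22:32801581-32801700, plus strand: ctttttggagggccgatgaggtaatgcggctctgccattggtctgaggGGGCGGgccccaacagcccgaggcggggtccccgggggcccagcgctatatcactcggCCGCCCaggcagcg

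The motifs were searched on both strands in 300 bases per gene, from 250 before to 50 after the RefSeq start. The AP-1 letters were found in MMP10 alone of the 5 matched members, as TGAATCA beginning 67 bases before the start, and 7.71% of the 35116 RefSeq windows held a match. TATAAA was also found in MMP10 alone, 31 bases before the start, against 11.5% of all windows. SP1 letters occurred 5 times in TIMP3, 2 times in TIMP1 and 1 time each in MMP14 and TIMP4, and 45.0% of all windows held at least 1. The ETS letters AGGAAG occurred 1 time each in TIMP1 and TIMP4, against 33.6% of windows. These matches are a description of the letters in the windows and not of factor binding.

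Total counts ran from 17355700 to 26352060 per library. FAP itself had 42 to 55 counts in the LX-2Vector libraries and 14805 to 15160 in the LX-2FAP libraries, a log2 fold change of 8.33 (SE 0.13). The libraries of both groups lay apart on the first principal component (36.2% of the variance), and of the LX-2FAP libraries replicate 1 was the closest to the controls. Of 12 stellate cell markers, 4 stayed under 1 FPKM (fragments per kilobase of gene, scaled to library size) in every library, LRAT was listed at 0 in all and ACTA2, the smooth muscle actin of activated stellate cells, had 0.903 to 1.39 FPKM, whereas VIM had 293.8 to 330.5 FPKM. The summed level of the stellate list was 392.9 to 414.6 FPKM in LX-2Vector and 396.7 to 420.1 FPKM in LX-2FAP. By the test used for all genes, 1 marker of that list was higher in LX-2FAP (VIM) and 3 were lower (COL1A1, COL3A1 and PDGFRB). Of all genes tested, 2.57% were called higher and 2.73% lower. The calls of COL1A1 and COL3A1 were lost without LX-2FAP replicate 3. Markers of hepatocytes (5 of 6), endothelial cells (6 of 6), macrophages and leukocytes (4 of 6) and epithelial cells (3 of 6) were under 1 FPKM in every library. The epithelial list summed to 61.4 to 64.0 FPKM in LX-2Vector and 54.2 to 60.8 FPKM in LX-2FAP, mostly from the keratins KRT8 and KRT18, and the other lists summed to at most 7.42 FPKM in any library. The endothelial sum was 1.2 to 1.49 FPKM in LX-2Vector and 0.908 to 1.29 FPKM in LX-2FAP, where VWF was lower, and the part of these lists in the results was not tested.

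The members spanned nearly the whole range of expression in LX-2Vector cells. Mean FPKM, which corrects for gene length and so allows genes to be compared, was highest for MMP1 at 229.6 ± 15.5 (SD, n = 3), rank 59 of all genes. TIMP1 followed at 131.2 ± 1.81 FPKM (rank 152), TIMP2 at 85.4 ± 3.45 FPKM (rank 298) and MMP14 at 21.1 ± 0.688 FPKM (rank 2163), and none of these neighbours in the order overlapped. TIMP3 (10.2 ± 0.838 FPKM) and MMP9 (9.19 ± 1.44 FPKM) overlapped, although TIMP3 was the higher in 3 of 3 libraries. MMP3 had 7.78 ± 0.308 FPKM and MMP2 6.09 ± 0.640 FPKM, and neither overlapped its neighbour. MMP10 and TIMP4 lay at or near the limit of detection. The deposited length of MMP1 is 2738 bp and its exons in GENCODE release 29 (GRCh38) cover 1970 bp, at which its LX-2Vector mean would be 319.1 FPKM, so its first place did not depend on that length.

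**Figure D1:**
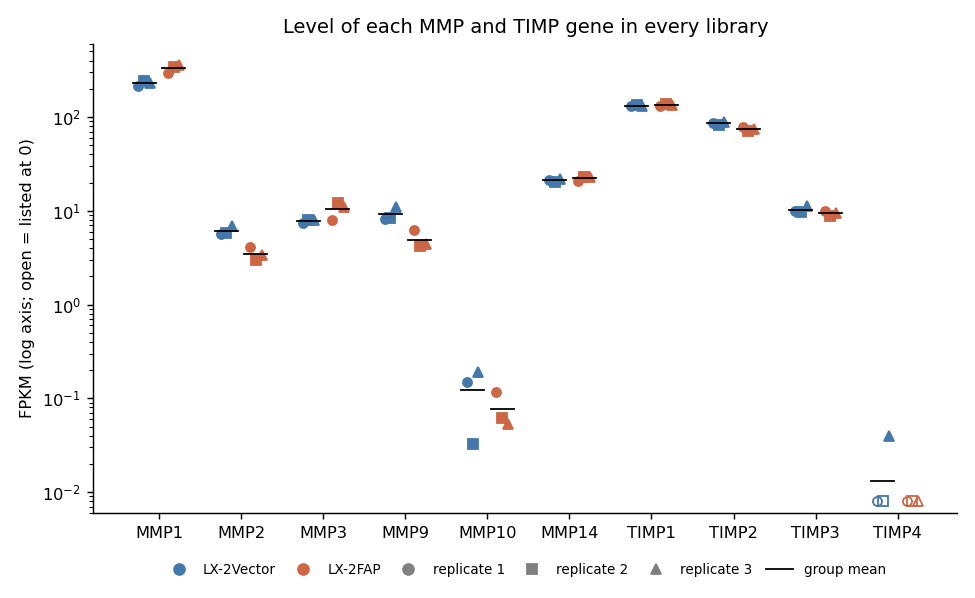
FPKM on a log axis for the 10 members, with 1 point per library (blue, LX-2Vector; orange, LX-2FAP; shape, replicate), a line at each group mean above 0 and open symbols at the bottom for values listed at 0. MMP1, TIMP1 and TIMP2 stood above 70 FPKM in every library, MMP10 and TIMP4 below 0.2 FPKM, and the groups stood apart for MMP1, MMP2, MMP9 and TIMP2.

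MMP1 (ENSG00000196611, chr11:102789920-102798160, minus strand) encodes interstitial collagenase, which makes the first cut in the triple helix of collagens I and III. Its level was 213.7, 244.7 and 230.3 FPKM in LX-2Vector replicates 1, 2 and 3, and 296.3, 342.2 and 360.3 FPKM in LX-2FAP replicates 1, 2 and 3. Every LX-2FAP library lay above every LX-2Vector library, with a gap between the groups larger than the range of the controls. The members were chosen by this comparison, with MMP1 higher, so nothing is read from that separation. On normalized read counts (CPM, counts scaled to library size) the means were 623.6 ± 39.5 and 922.9 ± 93.3 (SD, n = 3 each), a log2 fold change of 0.57 (SE 0.06), or 1.48-fold. Leaving out each library in turn gave log2 fold changes from 0.51 to 0.65. A pseudogene on the other strand, WTAPP1, covers 7.61% of the exon bases of MMP1 and had 44 counts over all libraries against 97996 for MMP1. In bulk RNA, a change in the share of cells that express a gene and a change in RNA per cell cannot be told apart.

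Both stromelysins lie beside MMP1 and differed from each other in level. MMP3 (stromelysin 1, ENSG00000149968, chr11:102835801-102843803, minus strand) cleaves proteoglycans, laminin and fibronectin and can complete the activation of pro-MMP1. It had 363, 257 and 310 counts in LX-2Vector and 355, 412 and 433 counts in LX-2FAP, or 13.7, 14.6 and 14.6 CPM against 14.8, 22.9 and 20.7 CPM. LX-2FAP replicate 1 lay within the range of the controls in FPKM (7.91 against a highest control of 7.99) and only just above it in CPM, while replicates 2 and 3 were clearly higher. The fitted log2 fold change of MMP3 was 0.43 (SE 0.12), which fell to 0.31 without LX-2FAP replicate 2 and reached 0.61 without LX-2FAP replicate 1. Its coefficient of variation was 3.52% in LX-2Vector and 21.5% in LX-2FAP. MMP10 (stromelysin 2, ENSG00000166670, chr11:102770503-102780628, minus strand) had 7, 1 and 7 counts in LX-2Vector and 5, 2 and 2 counts in LX-2FAP, and it did not pass the filter on low counts. The ratio of its summed counts, each over the summed library totals, was 0.611 (exact 95% interval 0.236 to 1.49, counting error only), so no difference was detectable at this depth.

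MMP1, MMP3 and MMP10 belong to a cluster of 9 MMP genes on chromosome 11, all on the minus strand, between 102520508 and 102955734 (435.2 kb). Nearly all reads of the cluster came from MMP1, which took 97.6% to 98.2% of its counts in each library. MMP3 starts 45.6 kb upstream of MMP1 and held 2130 counts over the 6 libraries, whereas MMP10, which starts 17.5 kb downstream, held 24. The remaining 6 genes were at or near 0. MMP13 had 5 counts in all, MMP12 6, MMP8 28, MMP20 1 and MMP27 0. MMP7 had 24, of which 19 were in LX-2Vector and 5 in LX-2FAP (ratio 0.268, exact 95% interval 0.0781 to 0.741, counting error only), and this gene was singled out after its values were seen.

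**Figure D2:**
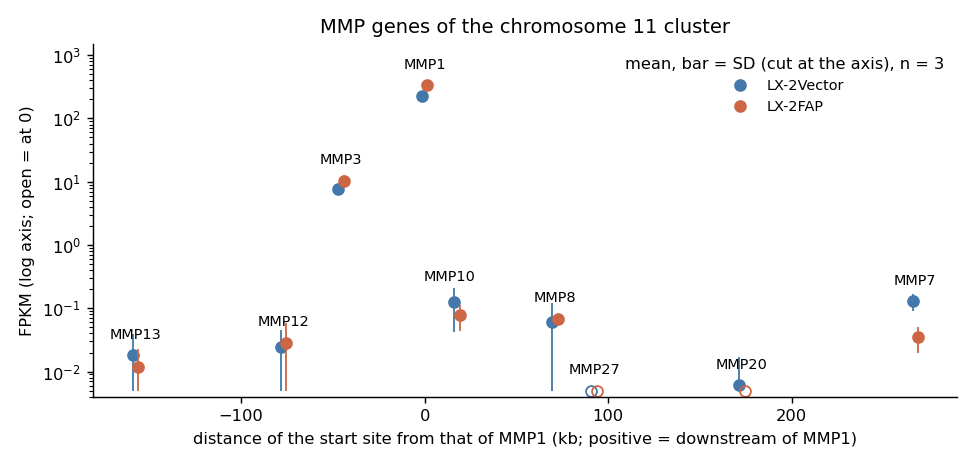
Mean FPKM on a log axis (bar, SD over 3 libraries, drawn only down to 0.005 FPKM) of the 9 MMP genes of the chromosome 11 cluster against the distance of their start from that of MMP1 in kb, with LX-2Vector in blue and LX-2FAP in orange, and open symbols for means of 0. MMP1 and MMP3 stood above 7 FPKM and the other 7 genes below 0.2 FPKM.

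The gelatinases, which degrade denatured collagen and the type IV collagen of basement membranes, were both lower in LX-2FAP cells. MMP2 (gelatinase A, ENSG00000087245, chr16:55389700-55506691, plus strand) had 5.62, 5.83 and 6.82 FPKM in LX-2Vector replicates 1, 2 and 3, and 4.07, 3.02 and 3.38 FPKM in LX-2FAP replicates 1, 2 and 3. No LX-2FAP library reached the lowest control, which restates the choice of the members with MMP2 lower. The CPM means were 28.4 ± 2.93 and 16.6 ± 2.52 (SD, n = 3 each), a log2 fold change of -0.76 (SE 0.10), or 0.590-fold, with values from -0.89 to -0.67 when each library was left out. MMP9 (gelatinase B, ENSG00000100985, chr20:46008908-46016561, plus strand) had 8.27, 8.46 and 10.8 FPKM in LX-2Vector and 6.21, 4.18 and 4.38 FPKM in LX-2FAP. These groups did not overlap either, and LX-2FAP replicate 1 was again the LX-2FAP library closest to the controls. The CPM means of MMP9 were 21.3 ± 3.29 and 11.6 ± 2.62, a log2 fold change of -0.86 (SE 0.13), or 0.552-fold, and -1.07 to -0.71 with each library left out. An antisense gene, SLC12A5-AS1, covers 18.4% of the exon bases of MMP9 and had 2 to 12 counts per library against 178 to 534 for MMP9. The use of strand in counting is not stated, so reads of the shared bases cannot be told apart.

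The ratio of MMP2 to MMP9 in FPKM was 0.680, 0.689 and 0.628 in LX-2Vector and 0.656, 0.722 and 0.773 in LX-2FAP, and the groups overlapped. The summed FPKM of both gelatinases was 13.9, 14.3 and 17.7 in LX-2Vector and 10.3, 7.20 and 7.76 in LX-2FAP. Over the 6 libraries, Pearson's r between the log2 CPM of MMP2 and MMP9 was 0.991, a description of points that share the same libraries and group difference.

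MMP14 (membrane-type 1 MMP, ENSG00000157227, chr14:22836557-22849027, plus strand) is anchored in the plasma membrane, cleaves collagen there and activates pro-MMP2 in a complex with TIMP2. It had 21.2, 20.4 and 21.8 FPKM in LX-2Vector and 20.9, 23.0 and 23.0 FPKM in LX-2FAP. The groups overlapped, and the log2 fold change was 0.10 (SE 0.05), from 0.08 to 0.15 with each library left out. The FPKM ratio of MMP14 to MMP2 was 3.49 ± 0.283 in LX-2Vector and 6.51 ± 1.26 in LX-2FAP (SD, n = 3 each). The ratio of TIMP2 to MMP14 was 4.04 ± 0.0323 in LX-2Vector and 3.36 ± 0.351 in LX-2FAP. Neither ratio overlapped between the groups. The members were chosen by this comparison, with MMP2 lower, so nothing is read from that lack of overlap.

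Among the inhibitors, only TIMP2 had FPKM values that did not overlap between the groups. TIMP1 (ENSG00000102265, chrX:47582313-47586789, plus strand, within an intron of SYN1), an inhibitor of most secreted MMPs, had 129.7, 133.2 and 130.8 FPKM in LX-2Vector and 132.3, 138.4 and 134.7 FPKM in LX-2FAP. Its log2 fold change was 0.07 (SE 0.04), and its groups were apart in CPM but overlapped in FPKM. TIMP1 had the lowest coefficient of variation of the tested members, 1.03% in LX-2Vector and 2.47% in LX-2FAP. The medians over all tested genes were 6.92% and 6.54%. Those genes were not matched in count to TIMP1, which had 3344 to 4943 counts per library, and counting error is part of these values. Nothing is therefore read from that distance. TIMP2 (ENSG00000035862, chr17:78852977-78925387, minus strand) had 85.6, 81.8 and 88.7 FPKM in LX-2Vector and 78.6, 70.7 and 74.7 FPKM in LX-2FAP. Each LX-2FAP library lay below each control, and the log2 fold change was -0.17 (SE 0.04), or 0.892-fold, from -0.20 to -0.13 with each library left out. CEP295NL, on the same strand, covers 3.5% of the exon bases of TIMP2. It had 111, 75 and 87 counts in LX-2Vector and 84, 60 and 71 in LX-2FAP, against 7260 to 12702 per library for TIMP2. An antisense gene, AC022966.1, covers 6.5% and had 0 counts.

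TIMP3 (ENSG00000100234, chr22:32801701-32863043, plus strand, inside SYN3) encodes the inhibitor that binds to the matrix itself. It had 9.83, 9.66 and 11.2 FPKM in LX-2Vector and 9.93, 8.76 and 9.41 FPKM in LX-2FAP, which overlapped, with a log2 fold change of -0.10 (SE 0.07) that ran from -0.14 without LX-2FAP replicate 1 to -0.02 without LX-2Vector replicate 3. TIMP4 (ENSG00000157150, chr3:12153051-12159351, minus strand, inside SYN2) had 1 count, in LX-2Vector replicate 3, over all 6 libraries. A count of 0 allows up to 3 counts, or 0.0953 to 0.145 FPKM in these libraries, and TIMP4 was not tested.

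**Figure D3:**
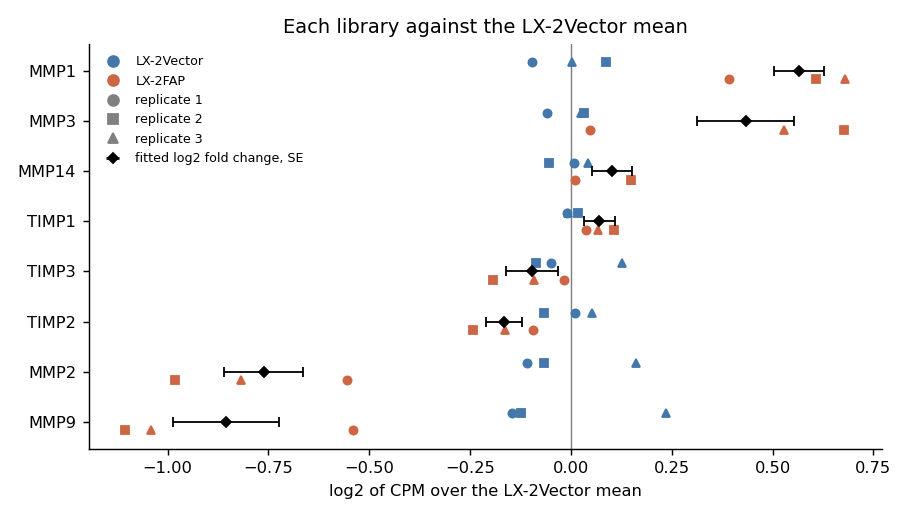
Log2 of each library's CPM over the LX-2Vector mean for the 8 members that passed the filter on low counts (blue, LX-2Vector; orange, LX-2FAP; shape, replicate), with the fitted log2 fold change and its SE as black diamonds. MMP9 (-0.86) and MMP2 (-0.76) lay at the low end and MMP1 (0.57) at the high end. Among orange points replicate 1 was the closest to the LX-2Vector mean for 8 of 8 members, as it was to the controls on the first principal component of all tested genes.

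Of the 10 members, 8 passed the filter on low counts. By the edgeR quasi-likelihood test at an adjusted p under 0.05, 5 of the 8 were called, against 5.29% of all 18275 genes tested. MMP1 and MMP3 were called higher, where 2.57% of all genes were, and MMP2, MMP9 and TIMP2 lower, where 2.73% were. CPM did not overlap between the groups for 6 of the 8 members, against 26.4% of all genes. Of these, MMP1, MMP3 and TIMP1 were higher (13% of all genes) and MMP2, MMP9 and TIMP2 lower (13.4%). By a fold change over 1.2 with an unadjusted p under 0.05, 4 of the 8 passed (MMP1, MMP2, MMP3 and MMP9), against 7.89% of all genes. Since the same comparison chose the members, nothing is read from these counts. The median log2 fold change of the 8 was -0.01, equal at this precision to that of all tested genes.

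The calls of MMP3 and TIMP2 were lost when any of 5 libraries was left out. MMP3 was called without LX-2FAP replicate 1 but not without any of the other 5 libraries, where its log2 fold change was 0.31 to 0.46, nor with library size as the only scaling. TIMP2 was likewise called without LX-2FAP replicate 1 and not without any of the other 5. Since the comparison chose the members, a call that was kept says nothing about stability. Among the LX-2FAP libraries, replicate 1 was the closest to the LX-2Vector mean for 8 of 8 tested members, and it also had the lowest CPM of FAP among the LX-2FAP libraries (620.1 against 706.7 and 842.8). The part of the FAP level in these values was not tested.

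**Figure D4:**
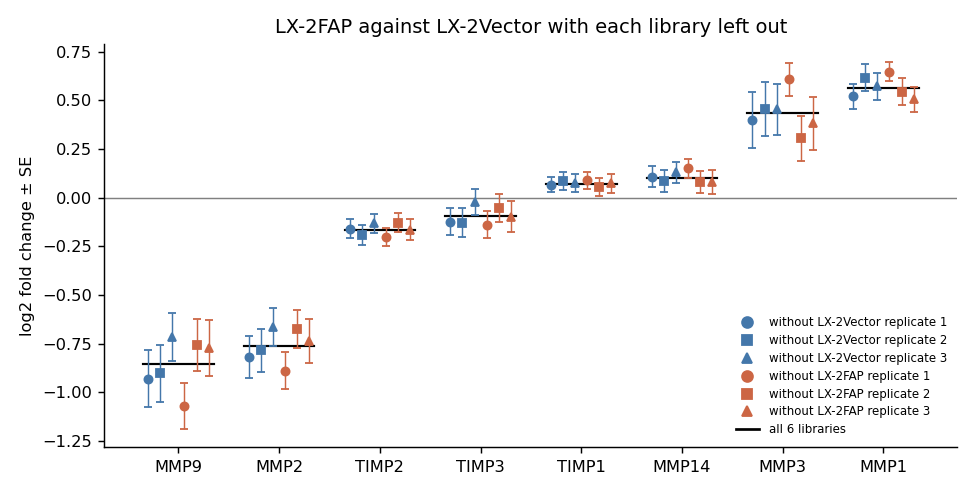
Log2 fold change (± SE) of LX-2FAP against LX-2Vector for the 8 tested members with each library left out in turn (colour, group of the library left out; shape, replicate) and with all 6 libraries (black line). MMP1 stayed between 0.51 and 0.65, MMP2 between -0.89 and -0.67 and MMP9 between -1.07 and -0.71, and no member crossed 0.

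The summed level of the MMP members followed MMP1. The sum was 256.4, 287.4 and 277.9 FPKM in LX-2Vector and 335.6, 384.6 and 402.1 FPKM in LX-2FAP, with no overlap. The ratio of the means was 1.37 (1.31 to 1.44 with each library left out). MMP1 was higher in the comparison that chose the members, so nothing is read from that lack of overlap. Without MMP1 the sum was 44.3 ± 2.84 FPKM in LX-2Vector and 41.1 ± 1.67 FPKM in LX-2FAP, a ratio of 0.928. MMP1 made up 83.8% ± 1.19 of the MMP sum in LX-2Vector and 89.0% ± 0.653 in LX-2FAP (SD, n = 3 each). The share of MMP2 was 2.22% in LX-2Vector and 0.947% in LX-2FAP, that of MMP9 3.36% and 1.34%, that of MMP14 7.74% and 5.97%, and that of MMP3 2.84% and 2.75%. In the latter the groups overlapped.

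The summed level of the TIMP members was 226.9 ± 3.35 FPKM in LX-2Vector and 219.2 ± 1.52 FPKM in LX-2FAP, a ratio of 0.966. TIMP1 made up 57.9% of it in LX-2Vector and 61.7% in LX-2FAP, TIMP2 37.6% and 34.1%, and TIMP3 4.51% and 4.27%. The MMP sum over the TIMP sum was 1.14, 1.28 and 1.2 in LX-2Vector and 1.52, 1.77 and 1.84 in LX-2FAP, and the groups did not overlap. Most of the MMP sum was MMP1, whose rise was part of the choice of the members, so nothing is read from this either. Without MMP1 the same ratio was 0.195 in LX-2Vector and 0.188 in LX-2FAP and the groups overlapped.

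The FPKM of MMP1 over that of MMP2, the pair by which the members were chosen, was 38.03, 41.99 and 33.8 in LX-2Vector and 72.7, 113.4 and 106.5 in LX-2FAP. The genes whose log2 CPM over the 6 libraries was most like that of MMP1, among the 11555 genes whose counts averaged at least 100, were GFPT1 (the first enzyme of the hexosamine pathway), CKAP2 (a spindle protein), NDUFAB1 (the mitochondrial acyl carrier protein), CALM2 (calmodulin) and JMJD1C, with Pearson's r from 0.997 to 0.998. Those most like MMP2 were LINC01224, TMEM132A, PBXIP1, ABLIM1 and PLTP (phospholipid transfer protein), with r from 0.996 to 0.999. In all, 464 genes had an r over 0.95 with MMP1 and 325 with MMP2, so a close likeness over 6 libraries that fall into 2 groups was common.

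The other genes of the pathway were taken as 6 lists by role, 75 genes in all, of which 62 passed the filter on low counts. By edgeR, 5 of the 62 rose and 13 fell, beside 2.57% and 2.73% of all genes tested, with a median log2 fold change of -0.08 against -0.01 for all genes tested. The lists were drawn up with earlier results of these data known, and they were not tested as sets. Most of those that fell encode matrix proteins. Without LX-2FAP replicate 3, 2 of the 18 calls remained (TFPI2 and HSPG2), and without LX-2FAP replicate 2, 8 of the 18 did.

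The 17 other MMP genes had a low level, with a summed FPKM of 8.42 ± 0.260 in LX-2Vector and 7.23 ± 0.163 in LX-2FAP (SD, n = 3 each). Of the 8 tested, 1 fell and none rose, and their median log2 fold change was -0.31. MMP19, a secreted MMP of stromal and other cells, was measured at 6.85, 7.47 and 8.23 CPM in LX-2Vector and 5.59, 4.78 and 5.39 CPM in LX-2FAP, and it fell by 0.50 on the log2 scale (SE 0.12, edgeR adjusted p = 0.0232). A pseudogene on the other strand, TMEM198B, shares 17.4% of its exon bases. It had 265, 179 and 239 counts in LX-2Vector and 196, 131 and 145 in LX-2FAP, more than the 181, 131 and 175 and the 134, 86 and 113 counts of MMP19 and lower in the same group, and reads of the shared bases cannot be told apart. The call of MMP19 was lost without LX-2Vector replicate 2 or 3 or LX-2FAP replicate 2 or 3. MMP16, a membrane-type MMP and the most abundant of these genes at 2.02 FPKM in LX-2Vector, had a log2 fold change of 0.13 (SE 0.07).

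The activators of pro-MMPs, which include the plasminogen activators and furin, had no called gene. By edgeR, 0 of the 7 tested passed, 1 had an unadjusted p under 0.05, and their median log2 fold change was -0.03. DESeq2 called 1 higher, PLAUR, the urokinase receptor, which had 74.1, 70.1 and 65.8 CPM in LX-2Vector and 74.2, 88.2 and 81.6 CPM in LX-2FAP and is named after its values were seen. Its log2 fold change was 0.21 (SE 0.06), with an adjusted p = 0.057 by edgeR. PLAT, tissue plasminogen activator, was the most abundant at 22.2 FPKM in LX-2Vector and 20.5 FPKM in LX-2FAP. PLG, the precursor of plasmin, was listed at 0 in every library.

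Among 12 tested genes for other inhibitors and for clearance of MMPs, 3 rose and 2 fell, with a median log2 fold change of -0.01. TFPI2, a Kunitz inhibitor that blocks plasmin and is bound to matrix, had 386.6, 503.6 and 466.1 CPM in LX-2Vector and 584.5, 632.6 and 640.5 CPM in LX-2FAP, and it rose by 0.46 on the log2 scale (SE 0.07, edgeR adjusted p = 0.0044). SERPINB2, an inhibitor of urokinase, rose by 0.55 (SE 0.10, edgeR adjusted p = 0.00769), and it shares 19.9% of its exon bases with SERPINB10, which had 7 counts in all. CD44, a hyaluronan receptor that docks MMP9 at the cell surface, rose by 0.18 (SE 0.03, edgeR adjusted p = 0.00957). The endocytic receptor LRP1 and its ligand THBS2, which together clear MMP2, fell, LRP1 by 0.40 (SE 0.07, edgeR adjusted p = 0.00823) and THBS2 by 0.44 (SE 0.09, edgeR adjusted p = 0.0144). Without LX-2FAP replicate 3 only the call of TFPI2 remained, and that of CD44 was also lost without LX-2FAP replicate 2. The call of THBS2 was also lost without LX-2FAP replicate 2 or LX-2Vector replicate 1, and under DESeq2.

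Of 10 tested fibrillar collagen and interstitial matrix genes, 5 fell and none rose, and the list had a median log2 fold change of -0.22. COL3A1, collagen III, had 39.6, 37.8 and 47.7 CPM in LX-2Vector and 31.6, 19.9 and 25.2 CPM in LX-2FAP, with no overlap, and fell by 0.69 (SE 0.12, edgeR adjusted p = 0.00765). COL1A1, the main chain of collagen I, had 315.6, 275.2 and 328.4 CPM in LX-2Vector and 264.9, 199.0 and 232.4 CPM in LX-2FAP and fell by 0.40 (SE 0.08, edgeR adjusted p = 0.0135). Its partner chain COL1A2, named after its values were seen, had 13 to 33 counts per library (0.0566 to 0.132 FPKM). The collagen V chains COL5A1 and COL5A2 fell by 0.52 (SE 0.13, edgeR adjusted p = 0.0293) and by 0.26 (SE 0.07, edgeR adjusted p = 0.0418), and FN1, fibronectin, by 0.19 (SE 0.05, edgeR adjusted p = 0.0498) with overlapping groups. SPARC, a collagen-binding protein and the most abundant of the list at 51.0 FPKM in LX-2Vector, was not called (log2 fold change -0.13, SE 0.05). None of the 5 calls remained without LX-2FAP replicate 3, where 5 genes of the list had an unadjusted p under 0.05, and 2 remained under DESeq2. Without LX-2FAP replicate 2 only that of COL3A1 remained. Leaving out a control also ended calls, that of COL1A1 without LX-2Vector replicate 1, of COL5A1 without replicate 3, of COL5A2 without replicate 2 or 3 and of FN1 without replicate 1 or 3.

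All 11 basement membrane genes were tested, of which 4 fell and 1 rose, with a median log2 fold change of -0.14. HSPG2, perlecan, had 71.0, 61.0 and 67.7 CPM in LX-2Vector and 53.2, 45.3 and 46.5 CPM in LX-2FAP and fell by 0.46 (SE 0.07, edgeR adjusted p = 0.00386). The laminin chain LAMB2 fell by 0.31 (SE 0.06, edgeR adjusted p = 0.012), and the nidogens, which link laminin to collagen IV, fell as well, NID2 by 0.31 (SE 0.08, edgeR adjusted p = 0.0395) and NID1 by 0.22 (SE 0.05, edgeR adjusted p = 0.018). The call of NID2 was kept only without LX-2FAP replicate 1, that of NID1 was lost without LX-2Vector replicate 3 or LX-2FAP replicate 2 or 3, and that of LAMB2 without LX-2FAP replicate 2 or 3. NID2 shares 30.0% of its exon bases with RTRAF on the other strand, which had 2967 to 4451 counts per library against 379 to 803 for NID2. HSPG2 shares 11.7% with LDLRAD2, which had 22 counts in all. LAMC1, the most abundant of the list, had 64.6 FPKM in LX-2Vector and a log2 fold change of 0.04 (SE 0.04).

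AP-1 and ETS factors are known to drive transcription of several MMP genes. Of the 14 tested, 1 rose and 1 fell, and their median log2 fold change was -0.03. JUNB, an AP-1 subunit, had 17.7, 19.3 and 19.3 CPM in LX-2Vector and 14.3, 13.9 and 13.8 CPM in LX-2FAP and fell by 0.42 (SE 0.08, edgeR adjusted p = 0.00823), and 14.2% of its exon bases overlap HOOK2 on the other strand, which had 540, 396 and 480 counts in LX-2Vector and 442, 291 and 322 in LX-2FAP, near those of JUNB. ETV1, an ETS factor, rose by 0.26 (SE 0.07, edgeR adjusted p = 0.0367), a call lost with library size as the only scaling and without LX-2Vector replicate 1 or 2 or LX-2FAP replicate 1 or 3. The call of JUNB was lost without LX-2FAP replicate 3. FOSL1, the most abundant of the list, had 176.7 FPKM in LX-2Vector and 191.3 FPKM in LX-2FAP and was not called. Its log2 fold change was 0.14 (SE 0.05), with an adjusted p = 0.0987 by edgeR.

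**Figure D5:**
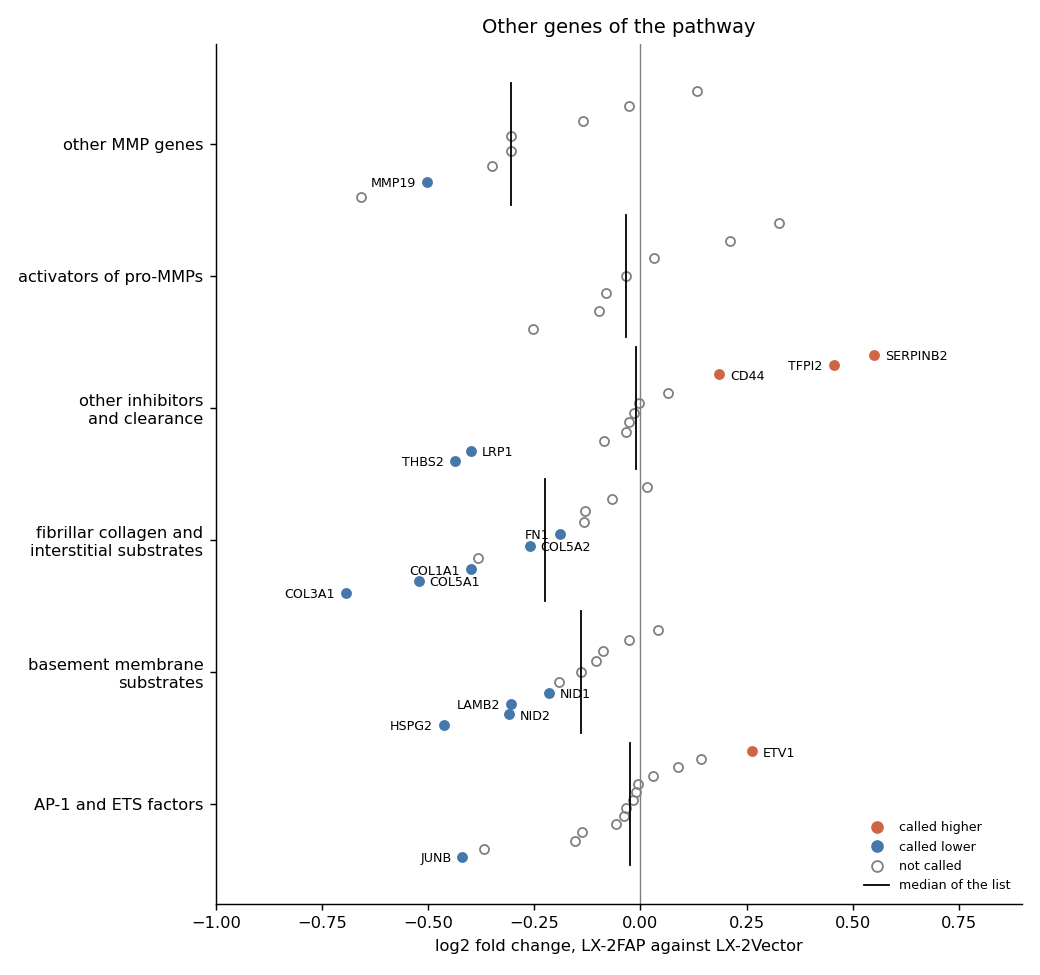
Log2 fold change of LX-2FAP against LX-2Vector for the tested genes of 6 lists (2 genes not shown), with called genes filled and named (orange, higher; blue, lower), the others open, and a line at the median of each list. The fibrillar list (median -0.22) and the basement membrane list (median -0.14) held 9 of the 13 genes that fell.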

How the data were processed

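RNA of 3 LX-2Vector and 3 LX-2FAP libraries was sequenced by the study, and the sample titles gave the groups and replicate numbers. Per the study's methods, reads were aligned with HISAT2 2.0.5 and counted per gene with featureCounts 1.5.0-p3. The methods name DESeq2 1.16.1 for differential expression and edgeR for the selection of genes. The submitters' processing notes name edgeR as well, and the build hg18. The authors deposited raw counts per gene and FPKM values, which the authors computed from counts and gene length. Counts and FPKM gave back 1 whole-number length per gene (tolerance 0.01 bp) for all 41175 genes with a count. The table's identifiers are Ensembl genes. Coordinates, exon overlaps and shared 75-base words come from GENCODE release 29 (GRCh38), not from the deposited files, and the use of strand in counting is not given in the sources used here.

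The quasi-likelihood test of edgeR 4.0.16 (R 4.3.3) was run on the counts after TMM scaling and the default filter (minimum count 10, minimum total 15), which kept 18275 genes. The comparison had no covariate, p-values were 2-sided and received Benjamini-Hochberg adjustment across the genes tested, and genes with an adjusted p under 0.05 are termed called. Standard errors came from the test statistic. The script was tested on simulated data. CPM values are scaled by library size and TMM factor, and FPKM values are as deposited. Intervals and limits for low counts cover counting error only.

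The members and the lists were chosen with earlier results of these data known. Named genes are the members, FAP, each called gene and the most abundant gene of a list, genes that overlap members or called genes, and the 5 genes most correlated with MMP1 and with MMP2. The lists' counts and medians include 2 genes whose own values are not reported here. Alternatives were the Wald test of DESeq2 1.42.0, its size factors, scaling by library size alone, removal of the low-count filter, a minimum of 10 counts in every sample, limma-trend (limma 3.58.1) on log2(FPKM + 1) and log2(FPKM + 0.1), a replicate block, each library left out, an adjusted p under 0.01 and a fold change over 1.2 with an unadjusted p under 0.05. Leaving out libraries for the summed levels was chosen after seeing the data. Within a group, libraries differed beyond counting noise, with a chi-square of 2.07 to 5.03 per degree of freedom. With 3 against 3 libraries an exact permutation test cannot give a 2-sided p below 0.1, so none was run.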

Additional observations from a re-analysis of the deposited data

How the results depend on the processing

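No tested member changed direction in the 13 alternatives that kept the filter, which for MMP1 and MMP2 restates their choice, and no called pathway gene reversed. Of the members called, limma-trend on either FPKM scale lost every call, and leaving out a library lost those of TIMP2 and MMP3. The 967 genes called became 1606 with no filter on low counts, 116 at an adjusted p under 0.01 and 2 by limma-trend on either FPKM scale. With library size alone 239 genes were higher and 809 lower, against 469 and 498. Limma-trend on either scale called 0 genes of each list, with unadjusted p under 0.05 for 5 members, 2 other MMP genes, 1 activator, 5 inhibitors, 6 fibrillar, 6 basement membrane and 4 AP-1 and ETS genes. At an adjusted p under 0.01, 3 members, 0 other MMP genes (2 at an unadjusted p under 0.05), 1 fibrillar, 2 basement membrane and 1 AP-1 or ETS gene were called. The cutoff of fold change and unadjusted p passed 2 other MMP genes and 3 fibrillar genes. DESeq2 called 2 fibrillar genes and 1 activator, and 1 activator was also called with DESeq2 size factors, with no filter and with at least 10 counts in every sample. With no filter 5 AP-1 and ETS genes were called.

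With each library left out, the genes called ran from 26 (without LX-2FAP replicate 3) to 1949 (without LX-2FAP replicate 1), and they numbered 129 without LX-2FAP replicate 2. They numbered 391 or 395 when LX-2Vector replicate 1 or 3 was left out. Members called ran from 3 to 5, other MMP genes from 0 to 2, activators from 0 to 1, inhibitors from 1 to 6, fibrillar genes from 0 to 6, basement membrane genes from 1 to 5 and AP-1 and ETS genes from 0 to 3, and leaving out LX-2FAP replicate 3 gave the lowest value of each range, in 3 of them level with other libraries. The cause was not tested.

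Nothing says whether the replicate numbers pair the samples. Same-numbered libraries had correlations of deviations of -0.04, 0.04 and -0.01, and those with unlike numbers ran from -0.11 to 0.12. These values cannot decide whether the samples were paired. With the replicate block, the number of genes called was 975 and that of members 5, with 1 other MMP gene, 0 activators (1 at an unadjusted p under 0.05), 5 inhibitors, 5 fibrillar, 5 basement membrane and 3 AP-1 and ETS genes. Depth limits MMP10 and TIMP4.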
